A study of Mus musculus with 305 samples.

Results

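Potassium channels are built from pore-forming subunits and from auxiliary subunits, and most of the genes for both carry symbols that begin with Kcn. The genes described here are the protein-coding genes of the mouse count table whose symbol is Kcn, 1 or more lower-case letters and a number. Of 52636 genes in the table, 91 had such a symbol and were considered, and 1 further symbol of that form is not analysed here. A gene was kept when its mean reached 1 CPM, a count scaled by the library's total, in at least 1 of 6 brain regions, which left 76 genes and removed 15. The genes just inside that limit were Kcnmb1, with a highest regional mean of 1.01 CPM, and Kcne4, with 1.04 CPM. Those just outside were Kcnk5 with 0.911 CPM and Kcnk7 with 0.625 CPM.

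The samples were bulk RNA-seq libraries from 51 male wild-type mice of a heroin self-administration study, with up to 6 regions per mouse, labelled PFC, NAc, dStri, BLA, vHPC and VTA. In this field the abbreviations stand for prefrontal cortex, nucleus accumbens, dorsal striatum, basolateral amygdala, ventral hippocampus and ventral tegmental area; the labels do not spell them out. All mice self-administered saline or heroin by vein for 15 days, and the strain is not given in the sources used here. Mice taken after 24 h of withdrawal had self-administered saline (S24, 8 mice, 7 in BLA) or heroin (H24, 11 mice). The other mice went through 30 days of withdrawal, received an injection of saline or heroin as a challenge and were taken after a drug-seeking test of 2 h. Their codes give the self-administered substance first and the challenge second: SS and SH took saline, HS and HH took heroin, and each group had 8 mice (7 for HH in VTA). The comparison at 24 h thus follows heroin intake alone, while SH against SS follows a first heroin exposure at the challenge, since SH mice had taken saline until then.

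All libraries were used but 1, a VTA library of the HH group with 0.8899 M gene counts (M, mega). The others held 19.3 to 61.4 M gene counts, with a median of 31.5 M. The region labels were checked against marker scores, the mean log2(CPM + 0.5) of a fixed list of genes. The striatal projection neuron score had a median of 9.21 in dStri and 8.64 in NAc, against 3.20 to 5.94 in the other regions. The excitatory neuron score of cortex and hippocampus lay at 6.86 in PFC, 6.15 in BLA and 6.05 in vHPC, against 2.21 to 2.42 elsewhere. The dopamine neuron score was 6.77 in VTA, where single libraries ran from 4.00 to 7.66, against 0.855 to 1.2005 elsewhere. No marker of these lists was at 0 in any region. By rank correlation with their own region, 14 libraries stood apart from the rest, and values without them are given beside results that they moved.

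Potassium channels let potassium leave the cell, which returns a neuron to rest after a spike and sets how easily it fires. Voltage-gated (Kv) channels open on depolarization, calcium- and sodium-activated channels open on ion entry, inward rectifiers (Kir) hold the resting potential, and leak channels of the K2P family stay open at rest. The G protein-gated inward rectifiers (GIRK) are opened by opioid, dopamine, GABA-B and other receptors coupled to inhibitory G proteins, so they are among the effectors through which heroin's metabolites silence neurons.

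Pore-forming subunits carry a selectivity filter, a short loop that in many of them reads as threonine, any residue, glycine, tyrosine or phenylalanine, glycine. That signature was found in the translated sequence of 53 of the 76 genes. It was present in every GIRK gene, every alpha subunit of the Kv1 to Kv4 and Kv7 families and every electrically silent Kv gene, and 7 of the 9 K2P genes held it 2 times; K2P subunits are known to carry a pair of pore loops. None of the Kv1 beta, KChIP, Kcne and BK beta genes, which encode auxiliary subunits, held these letters. Among genes for pore-forming subunits, the 3 SK genes, Kcnj14 and 7 of the 8 EAG, ERG and ELK genes (all but Kcnh5) did not hold them either, which says only that the pattern is not in those sequences. Below are 39 bases of coding sequence round the filter, 5′ to 3′ on the coding strand, for the 4 GIRK genes, which differ by region in composition, and for 3 genes on which other results turn. Capitals mark the 15 bases of the filter. The sequences and positions are those of GRCm38 with the GENCODE M21 annotation.
Kcnj3: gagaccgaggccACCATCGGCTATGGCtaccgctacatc
Kcnj5: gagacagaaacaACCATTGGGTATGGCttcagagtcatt
Kcnj6: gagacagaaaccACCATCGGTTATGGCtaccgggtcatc
Kcnj9: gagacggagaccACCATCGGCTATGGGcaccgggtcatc
Kcna5: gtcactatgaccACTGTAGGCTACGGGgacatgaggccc
Kcng4: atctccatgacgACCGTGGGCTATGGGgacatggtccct
Kcnma1: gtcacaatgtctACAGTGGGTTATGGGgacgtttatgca

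The stretch of Kcnj3 (ENSMUSG00000026824) lies at chr2:55437615-55437653 on the plus strand, in exon 2 of 4. That of Kcnj5 (ENSMUSG00000032034) lies at chr9:32322547-32322585, minus strand, exon 3 of 4. Kcnj6 (ENSMUSG00000043301) has it at chr16:94832765-94832803, minus strand, exon 3 of 4, and Kcnj9 (ENSMUSG00000038026) at chr1:172326172-172326210, minus strand, exon 3 of 4. The stretch of Kcna5 is at chr6:126533733-126533771, minus strand, exon 1 of 1. Kcng4 carries it at chr8:119625898-119625936, minus strand, exon 3 of 3, and Kcnma1 at chr14:23528401-23528439, minus strand, exon 8 of 31. Among the GIRK genes, Kcnj6 and Kcnj9 were closest, with 5 of 39 bases differing (87.2% identical), and Kcnj3 and Kcnj5 were farthest, with 12 differing (69.2%). The filter bases themselves differed at 1 to 3 of 15 positions in the 6 pairs.

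Most of these genes had strongly regional levels. The ratio of the highest to the lowest regional mean had a median of 4.98 over the 76 genes and ran from 1.19 for Kcne4 to 190 for Kcng4. It was over 10 for 22 genes and under 2 for 5, namely Kcne4, Kcnd1, Kcnu1, Kcnk1 and Kcnk6. For 57 genes no library of the lowest region reached any library of the highest. Differences between regions made up a median of 86.9% of a gene's variance in log2(CPM + 0.5), from 1.07% for Kcne4 to 96.6% for Kcnip2, while the SD among mice within a region had a median of 0.261. These ratios, overlaps and variance shares were taken for the 76 genes only, so they do not set these genes apart from others. Among all genes tested, 62.3% (BLA) to 82.4% (VTA) differed from the other 5 regions at an adjusted p under 0.05 (edgeR's quasi-likelihood test). Among the 76 genes 89.5% (BLA) to 97.4% (dStri) did. The highest mean lay in VTA for 24 genes, in PFC for 18, in dStri for 16, in vHPC for 10, in NAc for 5 and in BLA for 3. The lowest lay in dStri or VTA for 23 genes each. The labels do not say whether libraries of a region were prepared together, so region and preparation cannot be told apart. In bulk tissue fewer cells of a type and less RNA per cell cannot be told apart either. Regional means and SDs below are over all mice of a region, 51 in PFC, NAc, dStri and vHPC and 50 in BLA and VTA.

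**Figure D1:**
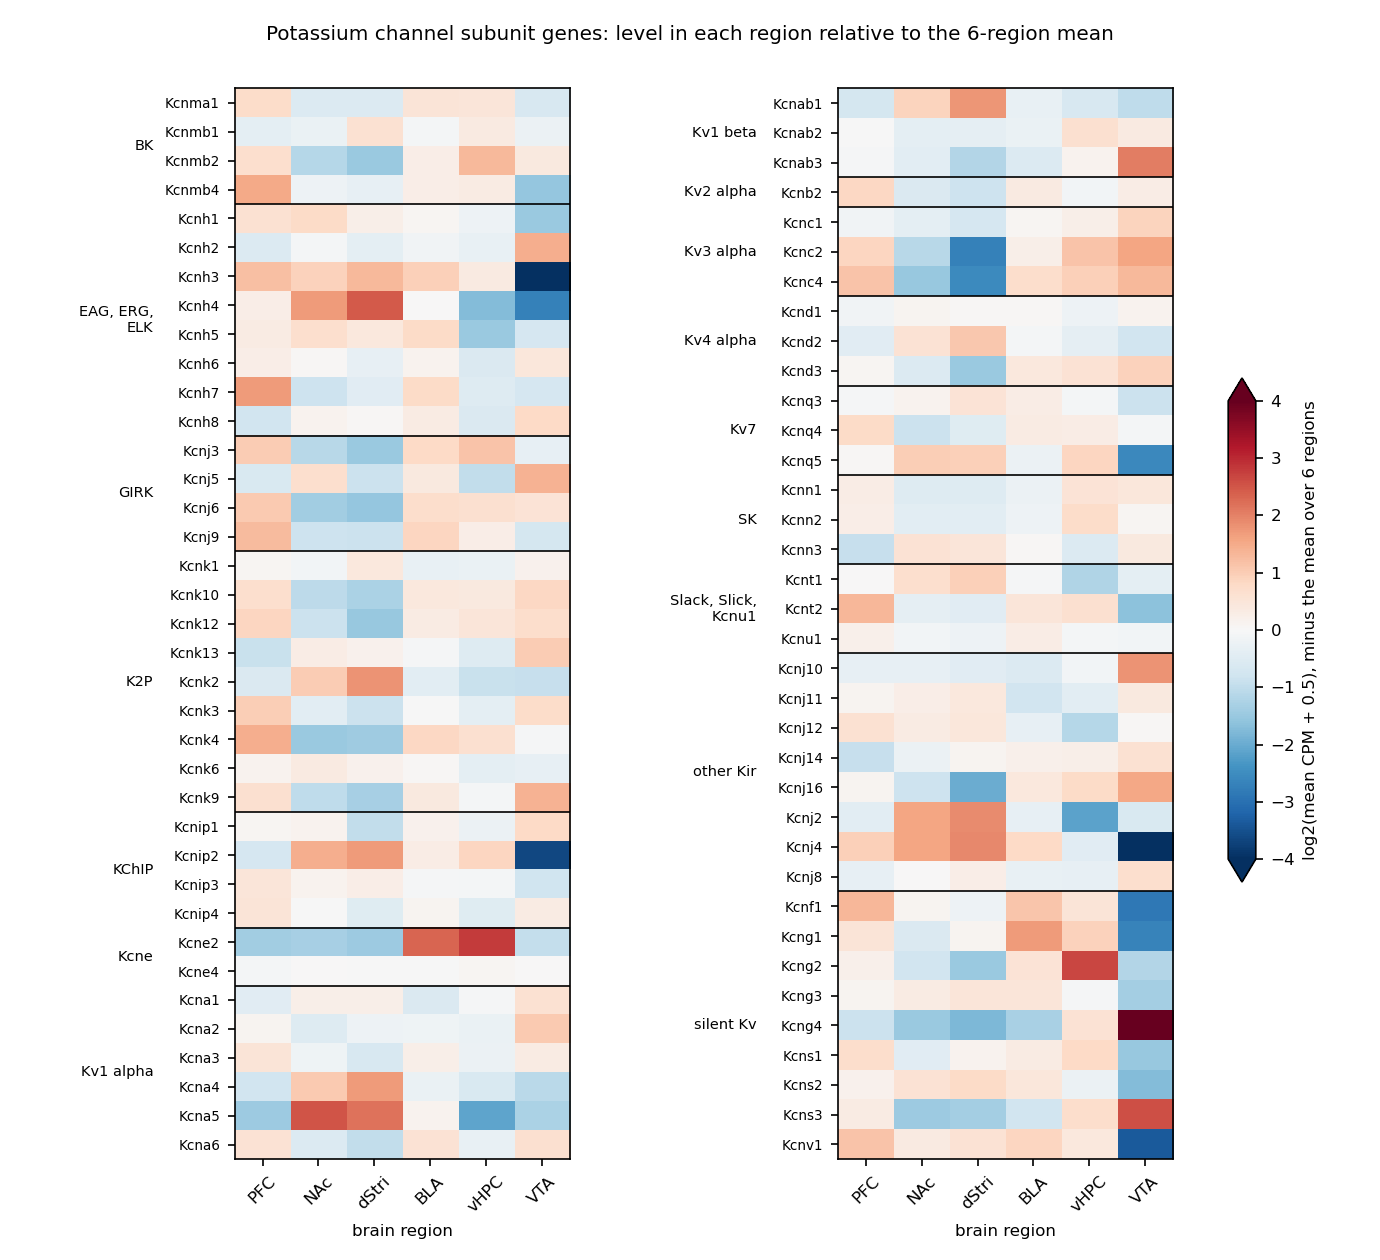
Regional levels of 73 of the 76 genes, as log2 of the mean CPM plus 0.5 in a region minus the gene's average over the 6 regions; rows are genes grouped by role and columns are regions. The ratio of the highest to the lowest regional mean ran from 1.19 (Kcne4) to 190 (Kcng4), and the VTA column holds both the deepest and the highest values, as for Kcnj4 and Kcng4.

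Each region was then tested against the mean of the other 5 over all libraries used, with the mouse as a block (edgeR's quasi-likelihood test), and a gene was called at an adjusted p under 0.05 with a log2 difference of at least 1. In PFC 18 of the 76 genes were called higher (23.7%) and 8 lower (10.5%), where 6.79% and 5.35% of all 21609 genes tested were. NAc had 11 higher (14.5%, against 4.62% of all genes) and 18 lower (23.7%, against 5.42%). dStri had 13 higher (17.1%, against 7.45%) and 22 lower (28.9%, against 7.9%). BLA had 11 higher (14.5%, against 4.2%) and 1 lower (1.32%, against 1.24%), so its lower calls were at the background. vHPC had 12 higher (15.8%, against 5.6%) and 9 lower (11.8%, against 5.01%), and VTA had 16 higher (21.1%, against 9.38%) and 22 lower (28.9%, against 12.1%). The limit of 1 CPM in any region favours genes that are high somewhere. Among the 74 genes whose mean over the 6 regions was at least 1 CPM, which leaves out Kcne4 and Kcnmb1, the counts were 18 and 7 in PFC, 11 and 18 in NAc, 12 and 22 in dStri, 11 and 1 in BLA, 12 and 9 in vHPC and 16 and 22 in VTA. Of the 16530 genes tested that also reached 1 CPM in a region, 5.57% were called higher and 5.40% lower in PFC. The shares were 4.16% and 5.29% in NAc, 6.64% and 7.83% in dStri and 4.05% and 1.07% in BLA. In vHPC they were 5.57% and 4.50%, and in VTA 9.72% and 10.8%. No particular standing of the set is read from these shares.

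**Figure D2:**
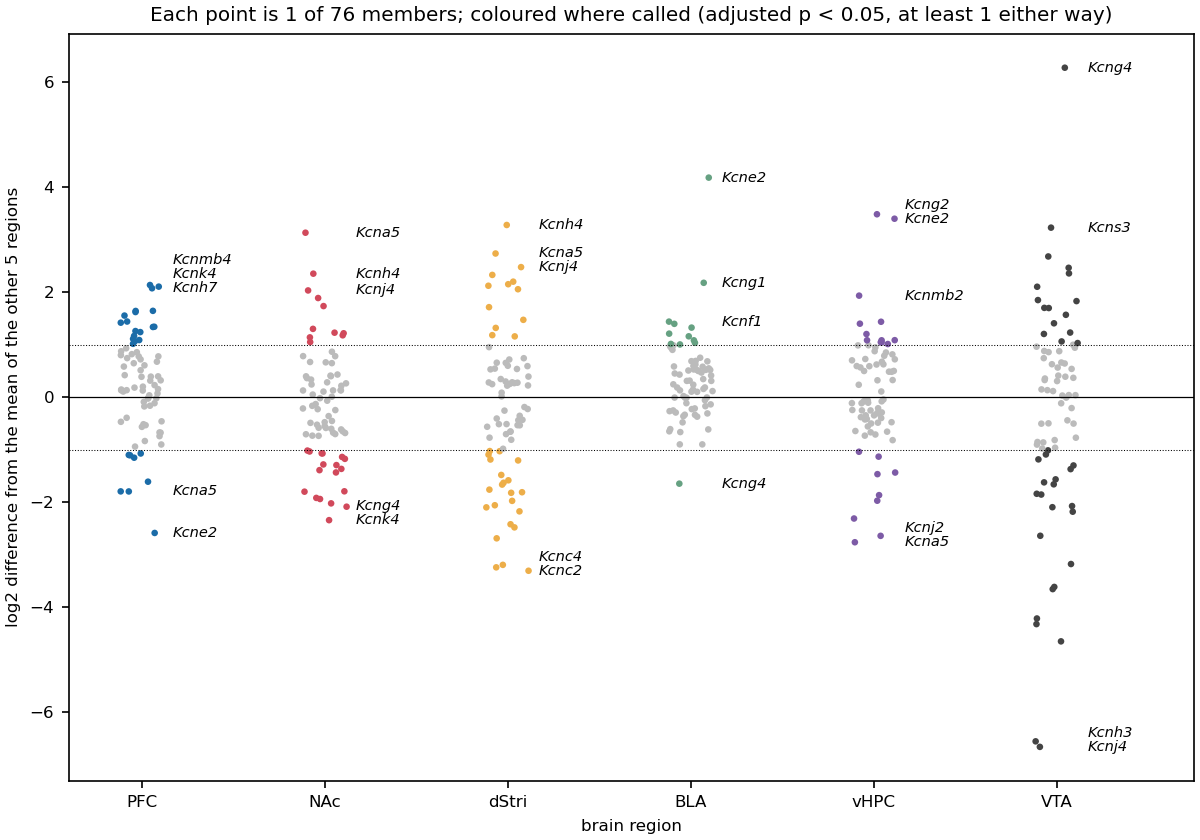
Log2 difference of each of the 76 genes (1 point per gene) between a region and the mean of the other 5, by region; coloured points passed an adjusted p under 0.05 with a difference of at least 1. VTA spans the widest range, from -6.66 for Kcnj4 to 6.28 for Kcng4, and BLA has 11 genes called higher and 1 lower.

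Kv1 channels act near the spike threshold and along axons. Per kilobase of exon, which allows levels of different genes to be compared, Kcna1, Kcna2 and Kcna4 were the most abundant of the 6 alpha subunits. Kcna1 ran from 20.7 CPM per kilobase in BLA to 47.5 in VTA and Kcna2 from 18.4 in NAc to 54.4 in VTA. Kcna2 was called higher in VTA, by 1.21 on the log2 scale, with 647 ± 166 CPM (SD, n = 50) there and 219.5 to 335 CPM elsewhere. Kcna4, which forms fast-inactivating channels, went the other way. Its mean was 258.2 ± 31.0 CPM in dStri and 164 ± 21.1 in NAc (n = 51 each), against 37.2 to 65.7 CPM elsewhere, and it was called higher in both striatal regions (2.06 and 1.22) and lower in VTA (-1.37).

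Kcna5 was the most striatal of the Kv1 genes. Its lowest, median and highest libraries were at 47.3, 66.9 and 84.5 CPM in NAc and at 27.3, 54.2 and 73.7 CPM in dStri. In BLA they were at 4.93, 12.5 and 26.7 CPM and in vHPC at 0.443, 1.81 and 12.2 CPM. Every NAc library was thus above every library of BLA and vHPC, while dStri and NAc overlapped. The gene was called higher in NAc by 3.13 ± 0.0562 (SE, log2, adjusted p = 1.08e-141) and in dStri by 2.74 ± 0.0572 (adjusted p = 2.67e-127), and lower in vHPC (-2.76 ± 0.0869), PFC (-1.80 ± 0.0801) and VTA (-1.62 ± 0.0790).

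The Kv1 beta subunits are cytoplasmic partners, and one of them, encoded by Kcnab1, speeds inactivation. Kcnab1 had 472 ± 56.98 CPM in dStri and 257.4 ± 32.2 in NAc, against 67.96 to 110.97 CPM elsewhere, and was called higher in both (2.15 and 1.05) and lower in VTA (-1.30). Kcnab2 had the highest level per kilobase of all 76 genes, with a mean over regions of 70.7 CPM per kilobase, and passed the region call nowhere. Kcnab3 was called higher in VTA (2.47) and lower in dStri (-1.48).

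Kv2 channels carry slow delayed-rectifier current in cell bodies. Of the genes of this family, Kcnb2 was called higher in PFC (1.02).

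Kv3 channels open and close quickly and are known from fast-spiking neurons. Kcnc1, Kcnc2 and Kcnc4 had their highest mean in VTA and were called higher there. Kcnc1 was higher in VTA by 1.03, with 232.7 ± 50.9 CPM there. Kcnc2 spanned 128.6, 264.1 and 402 CPM in VTA and 6.68, 11.6 and 40.2 CPM in dStri, with no overlap. It was called lower in dStri by -3.31 ± 0.0714 (adjusted p = 3.71e-124) and in NAc by -1.39, and higher in VTA (1.85), vHPC (1.44) and PFC (1.06). Kcnc4 followed the same order at the ends, with 77.9 ± 8.29 CPM in VTA and 4.97 ± 3.52 CPM in dStri, where its lowest, median and highest libraries were at 1.79, 3.77 and 21.8 CPM. It was lower in dStri by -3.24 ± 0.0891 (adjusted p = 2.48e-101). The high dStri libraries of Kcnc4 return below with the treatment groups.

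Kv4 channels, with KChIP proteins as their cytoplasmic calcium-binding partners, carry the fast transient current of dendrites. Kcnd2 had 401 ± 35.5 CPM in dStri, where it was called higher (1.32), and 111.8 to 281.8 CPM elsewhere. Kcnd3 had the opposite pattern, with 48.4 ± 6.89 CPM in dStri (-1.76) and 260 ± 64.5 CPM in VTA (1.06). Kcnd1 stayed between 5.74 and 7.52 CPM. Among the KChIP genes, Kcnip2 was the most regional, with 301.7 ± 28.0 CPM in dStri, 249.2 ± 29.8 in NAc and 6.88 ± 6.59 in VTA. It was called higher in dStri (2.12), NAc (1.74) and vHPC (1.08) and lower in VTA (-4.65). Kcnip3 was called lower in VTA (-1.01), Kcnip1 was called lower in dStri (-1.21), and Kcnip4, from 37.2 to 74.8 CPM, passed the call in no region.

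Kv7 channels carry the M current, which muscarinic receptors shut. Kcnq3 was called lower in VTA (-1.09). Kcnq5 had 238.03 ± 26.8 CPM in NAc, 234.5 ± 18.6 in dStri and 218.7 ± 89.2 in vHPC against 19.9 ± 4.66 in VTA, and was called lower in VTA (-3.18) and higher in the 3 former regions by 1.01 to 1.18. The vHPC libraries of Kcnq5 ran from 51.2 to 364 CPM, the widest spread of that gene in any region.

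The electrically silent Kv subunits form no channel alone and modify Kv2 channels. As a group they had the most regional levels among roles with more than 2 genes, with a median ratio of highest to lowest mean of 21.0 over 9 genes. Of the 9, 7 were called lower in VTA, where 12.1% of all genes were. The other 2, Kcng4 and Kcns3, were called higher in VTA, where 9.38% of all genes were. Kcng4 had VTA libraries from 16.4 to 245.2 CPM with a median of 108.1 CPM, while no other region had a mean above the 5.03 ± 2.35 CPM of vHPC. The difference in VTA was 6.28 ± 0.0913 (adjusted p = 4.41e-164), and all VTA libraries were above all others. Kcns3 had 20.0, 34.2 and 56.3 CPM as its lowest, median and highest in VTA, against means of 1.68 to 9.38 CPM elsewhere, and was higher by 3.23 ± 0.0551 (adjusted p = 7.05e-148).

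Other silent subunits marked other regions. Kcng2 had vHPC libraries from 16.5 to 49.8 CPM, with a median of 31.8 CPM, and means of 1.30 to 6.89 CPM elsewhere. Its difference in vHPC was 3.49 ± 0.0705 (adjusted p = 5.3e-130), and no library of another region reached the lowest of vHPC. Kcng1 was highest in BLA, at 14.9, 39.5 and 97.3 CPM (2.18 ± 0.0834, adjusted p = 5.06e-72), with wide spread there and in vHPC, where libraries ran from 3.33 to 100.8 CPM. Kcnf1, the most abundant silent subunit per kilobase, had 268.9 ± 29.0 CPM in PFC, 232.96 ± 37.7 in BLA and 14.3 ± 12.8 in VTA, and was higher in PFC (1.64) and BLA (1.44 ± 0.0547, adjusted p = 1.61e-72) and lower in VTA (-3.66). Kcnv1 was called higher in PFC and BLA (1.42 and 1.16) and lower in VTA (-4.32), and Kcns2 was lower in VTA (-2.18).

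The EAG, ERG and ELK genes encode Kv channels with a cyclic-nucleotide-binding-like domain, several with slow gating. Kcnh3 was abundant in 5 regions, with means of 110.98 to 210.4 CPM, and low in VTA, with a lowest, median and highest library of 0.455, 1.08 and 54.5 CPM. It was lower in VTA by -6.56 ± 0.131 (adjusted p = 4.86e-132). The library at 54.5 CPM was that of S24 mouse 37, one of those that stood apart, and its excitatory neuron score was 4.61, the highest of VTA, against a median of 2.42. The next VTA library was at 16.0 CPM. Without the libraries that stood apart the log2 difference of Kcnh3, VTA against the other 5, was -6.79. Kcnh4 was striatal. Its dStri libraries were at 16.4, 33.1 and 50.3 CPM, and it was higher there by 3.28 ± 0.0835 (adjusted p = 1.94e-108) and in NAc by 2.35 ± 0.0873, with 0.490 ± 0.628 CPM in VTA.

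Kcnh7, an ERG gene, marked PFC, where its libraries were at 198, 240 and 301.3 CPM. BLA followed with 125 ± 16.9 CPM, and the remaining regions had means of 41.5 to 53.8 CPM. The difference in PFC was 2.08 ± 0.0519 (adjusted p = 1.15e-109), and no library of another region reached those of PFC. Kcnh2, another ERG gene, was called higher in VTA (1.70), with 80.2 ± 12.3 CPM there and 19.7 to 27.7 CPM elsewhere. Kcnh1 was called lower in VTA (-1.84) and Kcnh5 lower in vHPC (-1.87).

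Among calcium-activated channels, Kcnma1 encodes the pore of the BK channel and Kcnmb genes its beta subunits. Kcnma1 had 386 ± 34.8 CPM in PFC, 337 ± 47.8 in BLA and 330 ± 43.8 in vHPC against 150.7 to 160 CPM in NAc, dStri and VTA, and its differences stayed under the limit of the region call. Kcnmb4 was higher in PFC by 2.14 ± 0.0691 (adjusted p = 1.59e-86), with libraries at 4.13, 8.49 and 12.7 CPM, and lower in VTA (-2.64 ± 0.102), with a mean of 0.590 CPM. Kcnmb2 was highest in vHPC, at 3.73, 6.77 and 11.2 CPM (1.94 ± 0.0677, adjusted p = 6.43e-80), and lowest in dStri at 0.564 ± 0.292 CPM. The SK genes, whose channels shape the pause after a spike, differed less, with ratios of highest to lowest mean of 2.22 to 2.89, and among them Kcnn3 was called lower in PFC (-1.11). The sodium-activated channel genes Kcnt1 and Kcnt2 diverged: Kcnt1 was higher in dStri (1.16) and lower in vHPC (-1.47), while Kcnt2 was higher in PFC (1.65) and lower in VTA (-2.07).

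Of the inward rectifiers outside the GIRK group, Kcnj4 and Kcnj2 encode strong rectifiers that hold striatal projection neurons near their resting potential. Kcnj4 had libraries at 191, 245.3 and 297.9 CPM in dStri and a mean of 195 ± 24.9 CPM in NAc, against 0.182, 0.789 and 35.0 CPM in VTA. It was called higher in dStri (2.48 ± 0.0683), NAc (2.03 ± 0.0698), PFC (1.34) and BLA (1.21), and lower in VTA by -6.66 ± 0.132 (adjusted p = 9.89e-133). The VTA library at 35.0 CPM was again S24 mouse 37, and the next was at 5.42 CPM. Without the libraries that stood apart the log2 difference of Kcnj4, VTA against the other 5, was -6.92. Kcnj2 had 134.8 ± 16.4 CPM in dStri and 107.97 ± 15.1 in NAc and was lowest in vHPC, at 2.81, 7.01 and 19.7 CPM (-2.64 ± 0.0584, adjusted p = 1.69e-121).

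Kcnj10 encodes the main inward rectifier of glia, which clears potassium from the space round neurons. Its VTA libraries were at 125, 222.7 and 308 CPM, above every library of the other regions, whose means were 44.1 to 59.4 CPM, and it was called higher there by 2.10 ± 0.0437 (adjusted p = 2.24e-128). Kcnj16, a partner of the Kcnj10 subunit, was higher in VTA (1.83) and lower in dStri (-2.48) and NAc (-1.07). The oligodendrocyte score was also highest in VTA, with a median of 8.75 against 6.03 to 7.22 elsewhere, and its part in these differences was not tested.

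K2P genes differed by region within the family. Kcnk1, the most abundant per kilobase, stayed between 56.96 and 93.6 CPM and was called nowhere. Kcnk2, which encodes a mechanically and thermally sensitive leak channel, had 134.3 ± 12.9 CPM in dStri and 77.4 ± 10.4 in NAc against 20.0 to 28.3 CPM elsewhere (2.20 and 1.18). Kcnk4, of the same branch, was its opposite. Its PFC libraries were at 6.14, 8.43 and 13.2 CPM (2.11 ± 0.0665, adjusted p = 1.45e-88) and it was lower in NAc, at 0.719 ± 0.418 CPM (-2.34 ± 0.0953), and in dStri (-2.18). Kcnk4 shares 587 bases of exon (13.1% of its exons) with Catsperz on the same strand, a gene at 1.47 CPM on average. Kcnk9, an acid-sensitive leak channel gene, was higher in VTA (1.70) and lower in dStri (-1.67) and NAc (-1.29). Kcnk12 was higher in PFC (1.17) and lower in dStri (-2.06) and NAc (-1.18).

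The GIRK genes encode tetramers of mixed subunits, in which the Kcnj3 product needs a partner to reach the membrane. Kcnj3, Kcnj6 and Kcnj9 were high in PFC, BLA and vHPC and low in both striatal regions, and Kcnj5 was the exception. Kcnj3 libraries were at 95.2, 135.3 and 174 CPM in vHPC, 101.9, 125 and 167 CPM in PFC and 77.2, 106.6 and 140 CPM in BLA. In VTA they were at 31.0, 48.1 and 73.4 CPM, in NAc at 19.1, 25.0 and 66.04 CPM and in dStri at 12.7, 19.9 and 43.6 CPM. The 3 former regions overlapped among themselves and not with VTA, NAc or dStri. Kcnj3 was called higher in vHPC (1.40 ± 0.0405), PFC (1.26 ± 0.0409) and BLA (1.04 ± 0.0419) and lower in dStri (-1.82 ± 0.0519) and NAc (-1.43 ± 0.0504). In the order of regions, vHPC and PFC did not differ past the threshold (0.12 ± 0.0574, adjusted p = 0.0638), and every later step did.

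Kcnj9 had 157 ± 9.52 CPM in PFC, where libraries ran from 138.3 to 176 CPM, then 116.99 ± 16.2 in BLA, 78.2 ± 27.8 in vHPC, 39.6 ± 6.48 in VTA, 36.6 ± 6.76 in NAc and 35.5 ± 5.599 in dStri. It was called higher in PFC (1.56 ± 0.0360, adjusted p = 7.15e-117) and BLA (1.08) and lower in NAc and dStri (-1.03 each). The last step, NAc to dStri, was not past the threshold (adjusted p = 0.929), while VTA to NAc was (adjusted p = 0.0475). Kcnj6 had 41.6 ± 5.02 CPM in PFC, 32.3 ± 5.14 in BLA, 31.2 ± 5.95 in vHPC, 29.3 ± 7.60 in VTA, 7.14 ± 2.29 in NAc and 6.35 ± 2.89 in dStri. It was higher in PFC (1.34 ± 0.0463) and lower in dStri (-1.98 ± 0.0604) and NAc (-1.80 ± 0.0594). Neither BLA and vHPC (adjusted p = 0.357) nor NAc and dStri (adjusted p = 0.0729) differed past the threshold. The VTA libraries of Kcnj6 were at 9.87, 31.3 and 41.4 CPM.

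Kcnj5 was the rarest GIRK gene and had its own order. Its VTA libraries were at 1.28, 3.20 and 6.58 CPM, followed by means of 1.96 ± 1.05 CPM in NAc, 1.52 ± 0.601 in BLA, 0.509 ± 0.454 in PFC, 0.348 ± 0.247 in dStri and 0.276 ± 0.198 in vHPC. It was called higher in VTA (2.36 ± 0.123, adjusted p = 7.43e-51), NAc (1.30 ± 0.129) and BLA (1.02 ± 0.133) and lower in vHPC (-1.97 ± 0.171), dStri (-1.63 ± 0.166) and PFC (-1.07 ± 0.159). The BLA call was lost without the mouse block (0.96) and in saline mice alone (0.90), and the PFC call without the mouse block (-0.98). The steps from NAc to BLA (adjusted p = 0.225) and from dStri to vHPC (adjusted p = 0.203) were not past the threshold.

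**Figure D3:**
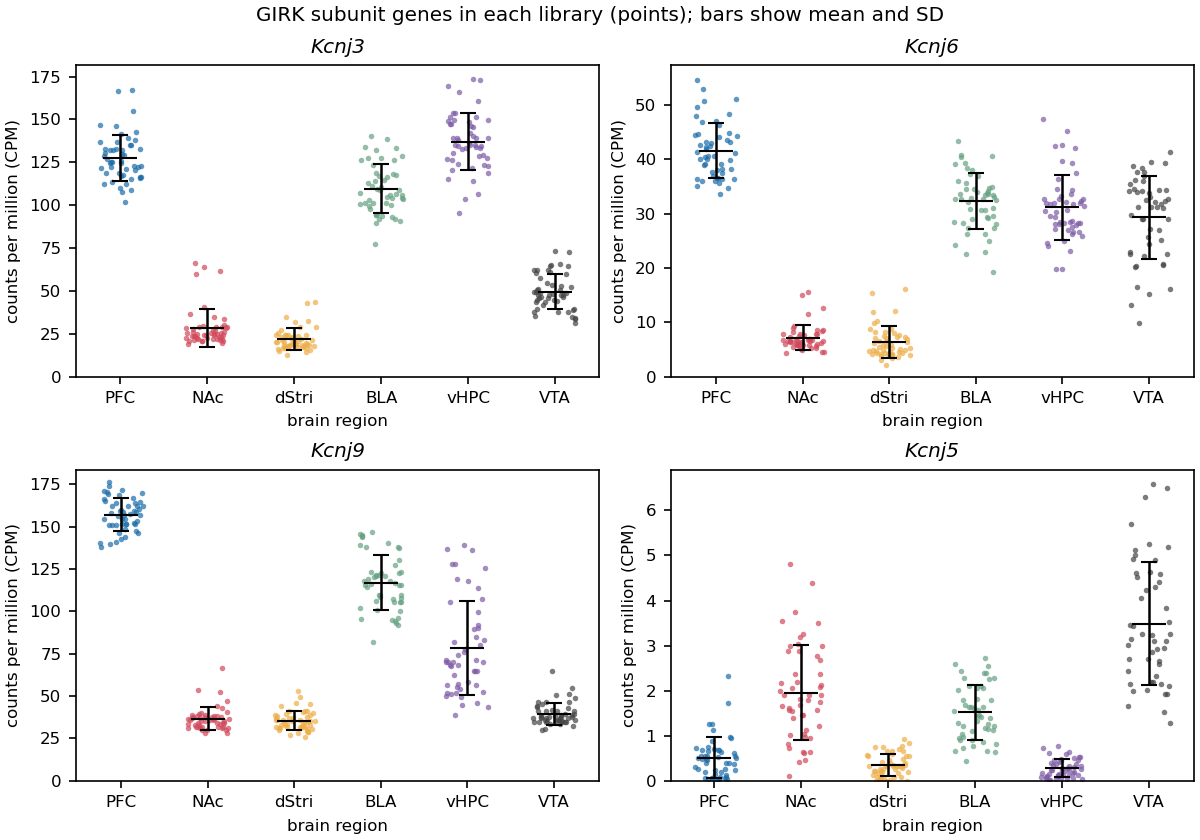
CPM of the 4 GIRK genes in each library (points) by region, with the mean and SD (bar and whiskers). Kcnj3, Kcnj6 and Kcnj9 sit lowest in NAc and dStri, while Kcnj5 is highest in VTA with a mean of 3.49 CPM and lowest in vHPC with 0.276 CPM.

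Per kilobase of exon the makeup of the GIRK sum also differed. Kcnj9 gave 61.9% of it in dStri, 55.7% in NAc, 54.97% in PFC and 51.6% in BLA, against 37.5% in vHPC, where Kcnj3 led with 54.02%. In VTA Kcnj3 (40.8%) and Kcnj9 (39.6%) were close, and Kcnj6, the subunit known from dopamine neurons, gave 16.5% against 6.10% to 8.39% in the other regions. Kcnj5 gave 3.19% in VTA and 2.72% in NAc, and 0.121% to 0.612% elsewhere. These shares are a description of regional means on the scale of CPM per kilobase and carry no test.

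The receptors and G protein subunits that gate GIRK channels, and further binding partners of potassium channels, were looked at as 38 genes of 2 lists. In PFC 3 of them were called higher (7.89%, against 6.79% of all genes) and 3 lower (7.89%, against 5.35%). NAc had 3 higher (7.89%, against 4.62%) and 2 lower (5.26%, against 5.42%), and dStri had 5 each way (13.2%, against 7.45% and 7.9%). BLA had 1 higher (2.63%, against 4.2%) and 0 lower (against 1.24%), vHPC 2 higher (5.26%, against 5.6%) and 4 lower (10.5%, against 5.01%), and VTA 6 higher (15.8%, against 9.38%) and 4 lower (10.5%, against 12.1%). Several of these counts were thus at or below the background. Oprm1, the mu opioid receptor at which heroin's metabolites act, was higher in NAc (1.18) and lower in PFC (-1.52). Drd2, the dopamine receptor that opens GIRK channels in dopamine neurons, was higher in dStri (4.13), NAc (2.91) and VTA (1.86) and lower in PFC (-4.05) and vHPC (-4.39). Gabbr2, a GABA-B receptor subunit, was higher in PFC (1.10) and lower in NAc (-1.18) and dStri (-1.71), the same directions as Kcnj3, Kcnj6 and Kcnj9 in those regions. Gng2, a G protein gamma subunit, was lower in NAc (-1.40) and dStri (-1.97) and higher in BLA (1.12) and vHPC (1.28). Htr1a, a serotonin receptor that acts through GIRK channels, was higher in vHPC (1.94) and lower in dStri (-2.56).

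Pairs of related regions were tested directly by the same rule. NAc and dStri share their main neuron type, and 5 genes were higher in NAc (2.34% of all genes were) and 1 lower (2.78%). The 5 were Kcnj5 (2.44 ± 0.194, adjusted p = 4.49e-27), Kcnc2 (1.60 ± 0.0746), Kcnj16 (1.17), Kcnip1 (1.11) and Kcnc4 (1.09), and the 1 was Kcnmb1 (-1.74 ± 0.237). Kcnmb1 reached the limit of 1 CPM in dStri alone (1.01 CPM, against 0.319 in NAc), so the limit favoured this direction. Among the 74 genes with a mean over the 6 regions of at least 1 CPM, 5 were higher in NAc and 0 lower. Between BLA and vHPC 9 genes were higher in BLA (4.56% of all genes) and 6 in vHPC (2.78%). Kcna5 (2.56 ± 0.0979) and Kcnj5 (2.49 ± 0.198) led toward BLA, and Kcng4 (-2.28 ± 0.164) and Kcng2 (-2.15 ± 0.111) led toward vHPC. PFC against BLA gave 3 higher (4.36% of all genes) and 7 lower (4.88%), with Kcnmb4 (1.348 ± 0.103) and Kcns3 (1.18 ± 0.0881) higher in PFC, and Kcne2 (-5.64 ± 0.539) and Kcnh8 (-1.92 ± 0.153) higher in BLA. PFC against vHPC gave 12 higher (7.78% of all genes) and 7 lower (5.53%), led by Kcnh4 (2.41 ± 0.143) and Kcnh7 (2.27 ± 0.0807) toward PFC and by Kcne2 (-4.99 ± 0.559) and Kcng2 (-2.58 ± 0.113) toward vHPC. Among the same 74 genes the counts were 12 and 6. Kcne2 is among the 74 and reached the limit of 1 CPM in BLA (7.11 CPM) and vHPC (9.99 CPM) alone, against 0.0774 CPM in PFC. The limit thus favoured its calls in both comparisons with PFC.

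Kcne2 encodes a small single-span subunit that assembles with several Kv channels and is known for its high level in the choroid plexus, the epithelium that makes cerebrospinal fluid. Its libraries were at 0, 0.434 and 66.98 CPM in BLA and at 0, 0.220 and 140 CPM in vHPC, and means elsewhere were 0.0531 to 0.283 CPM. It was called higher in BLA (4.18 ± 0.328, adjusted p = 4.35e-28) and vHPC (3.40 ± 0.362, adjusted p = 1.64e-17) and lower in dStri (-3.20), PFC (-2.59 ± 0.518) and NAc (-1.92, and -0.77 with no call in saline mice alone). Kcne2 passed the limit of 1 CPM through BLA (7.11 CPM) and vHPC (9.99 CPM) alone. The way the genes were chosen thus favoured higher calls there and lower calls elsewhere. Without the libraries that stood apart the differences were 3.43 in BLA and 2.41 in vHPC. A few libraries carried most of the signal: 11 BLA libraries and 8 vHPC libraries had a choroid plexus score of 4 or more, a limit chosen after seeing the data. Kcne2 was at 8.89 to 66.98 CPM in these 11 and at 8.55 to 140 CPM in these 8, and at most 4.60 CPM in the other BLA and 2.00 CPM in the other vHPC libraries.

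Since the libraries fell into these 2 ranges, the relation of Kcne2, as log2(CPM + 0.5), to the score was taken within each. In BLA, Pearson's r was 0.879 and Spearman's rho 0.759 over the 39 libraries with lower scores (adjusted permutation p = 2e-05 for both), and both were 0.973 over the 11 with higher scores (adjusted permutation p = 2.67e-05). In vHPC they were 0.803 and 0.730 over 43 libraries, and 0.992 (adjusted exact permutation p = 0.00017) and 0.952 (adjusted p = 0.00114, permutation) over 8. Without the 2 libraries with the most extreme scores, r was 0.819, 0.956, 0.747 and 0.984 in that order. Libraries with scores of 4 or more were found among 5 of 11 H24 mice and 1 of 7 S24 mice in BLA.

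**Figure D4:**
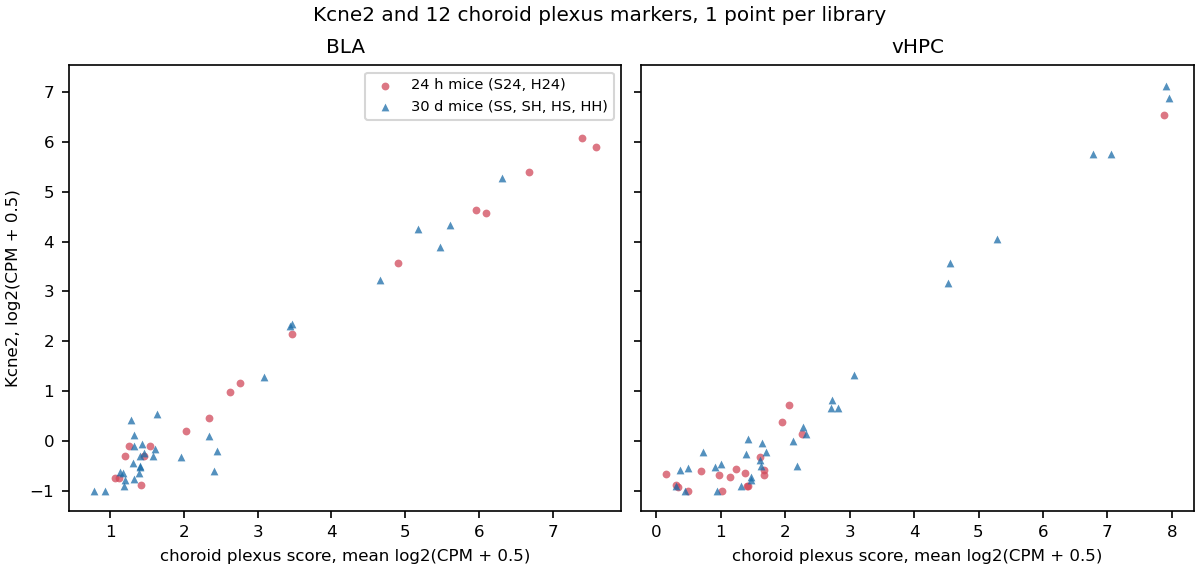
Kcne2 level, log2(CPM + 0.5), against the choroid plexus score, the mean log2(CPM + 0.5) of 12 marker genes, in BLA and vHPC; each point is a library, coloured by 24 h or 30 d of withdrawal. The 11 BLA and 8 vHPC libraries with scores of 4 or more hold the highest Kcne2 levels, 8.55 to 140 CPM.

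Other members known from 1 cell type were set beside that type's score in each region. This made 36 relations with Kcne2 included, over 50 or 51 libraries each. For Kcne2 in VTA, with at most 1.54 CPM, r was 0.456 and rho 0.321 (adjusted permutation p = 0.0033 and 0.0487). Without 2 libraries r was 0.292 there. In PFC, NAc and dStri r for Kcne2 was -0.0542 to 0.237, with adjusted permutation p of 0.149 or more. Kcnj10 rose with the astrocyte score in NAc (r = 0.568, rho = 0.519, adjusted permutation p = 0.000216 and 0.00108), with 0.535 after 2 libraries were left out and 0.759 and 0.538 among the 24 h and the 30 d mice. It also rose with the score in BLA (r = 0.512), dStri (r = 0.468) and vHPC (r = 0.370), with adjusted permutation p of 0.00066, 0.00207 and 0.0182. In vHPC r was -0.149 among the 24 h mice and 0.496 among the 30 d mice. PFC had r = 0.265 (adjusted permutation p = 0.0994). In VTA Kcnj10 went against the score (r = -0.461, rho = -0.402, adjusted permutation p = 0.00292 and 0.0126). Kcnj16 rose with the astrocyte score in dStri (r = 0.611, rho = 0.490, adjusted permutation p = 9e-05 and 0.00168). It also rose in NAc (r = 0.4535, adjusted permutation p = 0.00292). In PFC, BLA, vHPC and VTA its r was -0.0232 to 0.293, with adjusted permutation p of 0.0716 or more. Kcnc1, known from fast-spiking interneurons, rose with the interneuron score in NAc (r = 0.631, rho = 0.699, adjusted permutation p = 9e-05 for both, 0.585 without 2 libraries). It went against the score in VTA (r = -0.478, rho = -0.647, adjusted permutation p = 0.00206 and 9e-05). In BLA r was 0.394 and rho 0.413 (adjusted permutation p = 0.0124 and 0.011). As deviations from group means r was 0.252 in BLA (adjusted permutation p = 0.130). For dStri r was 0.312 and rho 0.323 (adjusted permutation p = 0.0514 and 0.0467). PFC and vHPC had r of -0.227 and 0.112 (adjusted permutation p = 0.166 and 0.524). Kcnj8, a mural cell gene, rose with the mural score in PFC (r = 0.400, rho = 0.419, adjusted permutation p = 0.0113 and 0.0098) and dStri (r = 0.388, rho = 0.355, adjusted permutation p = 0.0132 and 0.0282). Taken as deviations from group means, these were 0.214 (adjusted permutation p = 0.190) and 0.288 (adjusted permutation p = 0.0893). For Kcnj8 in VTA r was 0.287 and rho 0.329 (adjusted permutation p = 0.0745 and 0.0442). As deviations from group means r was 0.419 there (adjusted permutation p = 0.00696). In NAc, BLA and vHPC r for Kcnj8 was 0.0744 to 0.224. Kcnk13, a microglial gene, went against the microglia score in NAc (r = -0.358, rho = -0.302, adjusted permutation p = 0.0224 and 0.0566), and its coefficient r elsewhere was -0.305 to 0.319. The upper end was VTA, where rho was 0.373 (adjusted permutation p = 0.0514 for r and 0.020 for rho). Taken as deviations from group means, r for Kcnk13 was -0.317 in NAc and 0.191 in VTA (adjusted permutation p = 0.0543 and 0.222).

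Heroin intake, challenge and their combination were tested in 8 comparisons in each of 6 regions, fitted over all genes of a region. At 24 h, heroin mice (H24) were set against saline mice (S24). At 30 days, each of the other 3 groups was compared with SS, and HH also with SH, so several comparisons share the SS or SH mice. The challenge was also taken over both histories, the history over both challenges, and their interaction was tested. No member was called at an adjusted p under 0.05 in any of the 48 tests by edgeR's quasi-likelihood test, nor by DESeq2. Among all genes the share called was 0% except for 0.00506% for SH against SS in NAc, 0.015% for SH against SS in PFC, and 0.00506% in NAc, 0.235% in PFC and 0.00513% in dStri for the challenge. The smallest adjusted p of a member was 0.283.

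At an unadjusted p under 0.05, 26 of 450 member tests for H24 against S24 passed, 2 higher and 24 lower, where 4.94% of all genes did. SH against SS gave 20 of 452 (15 higher, 5 lower; 4.16% of all genes), HS against SS 10 (5 and 5; 3.25%), HH against SS 24 (4 and 20; 4.36%) and HH against SH 34 (8 and 26; 4.62%). The challenge over both histories gave 27 (17 and 10; 4.99%), the history 31 (6 and 25; 4.82%) and the interaction 16 (7 and 9; 3.25%). The members' shares ran from 2.21% (HS against SS) to 7.52% (HH against SH). Some of these counts moved by over 1.5 times with the setting: H24 against S24 gave 14 without the libraries that stood apart, HH against SS gave 15 and the history 18 with the number that opens a mouse's BLA library code as a covariate, and SH against SS gave 34 and the interaction 26 with the oligodendrocyte and choroid plexus scores as covariates. Shares of all genes under these settings are not given here.

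**Figure D5:**
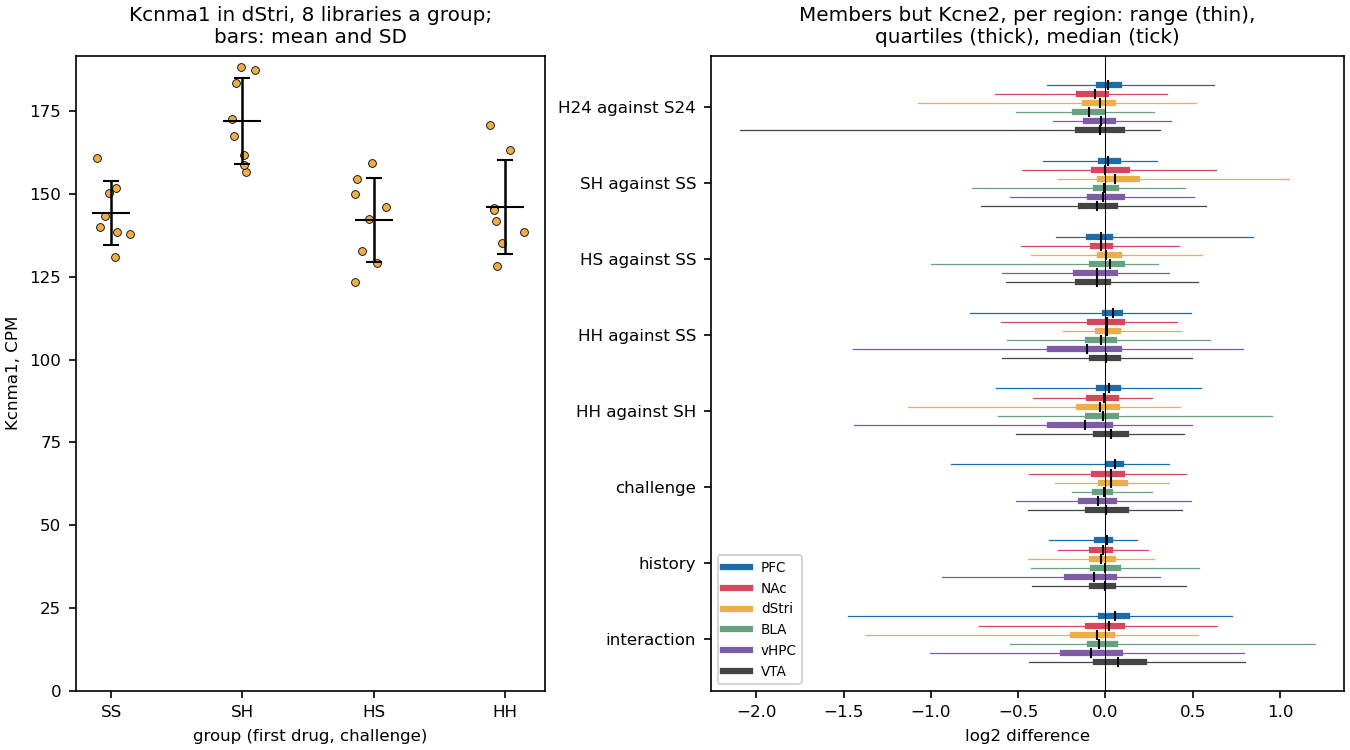
Left, Kcnma1 CPM in dStri of the mice taken after 30 d, by group, with mean and SD. Right, log2 differences of the members but Kcne2 for each region and comparison, drawn as range, quartiles and median; no member passed an adjusted p under 0.05, and the SH mice lie above the SS mean of 144.2 CPM for Kcnma1.

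The smallest adjusted p belonged to Kcnma1 in dStri. Its lowest, median and highest libraries were at 130.9, 141.7 and 161 CPM in SS, 157, 170.1 and 188 CPM in SH, 123.4, 144.2 and 159 CPM in HS and 128.3, 143.4 and 171 CPM in HH. All 8 SH mice were above the SS mean, and the groups overlapped between 157 and 161 CPM. The difference of SH from SS was 0.26 ± 0.0619 (log2, unadjusted p = 0.000132, adjusted p = 0.283). HH differed from SH by -0.22 ± 0.0619 (adjusted p = 0.755), and the 24 h groups were at 174 ± 25.4 CPM (S24) and 171 ± 17.9 CPM (H24). None of these passed the threshold.

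Beside Kcnma1, 9 further members were higher in SH than in SS dStri at an unadjusted p under 0.05, and 1, Kcnip2, was lower (-0.16), where 5.53% of all genes passed. Kcnc4 differed by 1.05 ± 0.326 (adjusted p = 0.507), Kcnj3 by 0.50 ± 0.156 (adjusted p = 0.526), Kcnc2 by 0.72 and Kcnf1 by 0.30 ± 0.0912 (adjusted p = 0.503). These were unevenly spread over mice: Kcnc4 was above the SS mean in 3 of 8 SH mice, at 13.9, 21.8 and 15.3 CPM in mice 10, 19 and 27, and Kcnj3 was at 34.6, 43.6 and 42.9 CPM in the same mice. The excitatory neuron score in those 3 dStri libraries was 4.29, 4.85 and 4.61, where the SS median was 2.00. Over 12 dStri libraries the score was 3 or more, of which 4 were SH and 1 SS. Without them, a choice made after seeing the data, Kcnc4 differed by -0.23 ± 0.199 (adjusted p = 0.9997), Kcnj3 by -0.02 ± 0.143, Kcnf1 by 0.09 and Kcnma1 by 0.18 ± 0.0719, and 4 members were higher and 1 lower at an unadjusted p under 0.05 (2.77% of all genes).

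In vHPC, 2 members were higher and 17 lower in HH than in SS at an unadjusted p under 0.05, where 9.34% of all genes passed. Kcnj6 was at 27.5 ± 4.06 CPM in HH and 35.7 ± 6.02 CPM in SS (-0.40 ± 0.129, adjusted p = 0.515), with 0 of 8 HH mice above the SS mean. Kcng3, a silent Kv subunit gene, was at 6.90 and 13.6 CPM (-1.01 ± 0.345, adjusted p = 0.515). The vHPC libraries of HH mice 18 and 21 stood apart, and without all libraries that did so the counts were 2 higher and 9 lower. Without libraries with choroid plexus scores of 4 or more they were 0 and 6, Kcnj6 differed by -0.28 and Kcng3 by -0.998. For the history over both challenges 1 was higher and 17 lower in vHPC (7.83% of all genes), and 1 and 5 without the libraries that stood apart. Shares of all genes are not given for the vHPC counts with libraries left out. The lower counts are therefore not read as a result about the members.

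After 24 h, 0 of 11 H24 mice were above the S24 mean for Kcnf1 in dStri (-0.23 ± 0.0687, adjusted p = 0.737). Of the dStri libraries, 3 of 8 in S24 and 1 of 11 in H24 had an excitatory neuron score of 3 or more, and without these the log2 difference of Kcnf1, H24 against S24, dStri, was -0.1389. For Kcnk9 in BLA, 0 of 11 H24 mice were likewise above the S24 mean (-0.30 ± 0.115, adjusted p = 0.666). BLA had 1 member higher and 8 lower in H24 at an unadjusted p under 0.05 (6.49% of all genes), and 1 and 1 without the libraries that stood apart. The share of all genes without those libraries is not given, so nothing about the members is read from the lower count. The choroid plexus score in BLA had a median of 3.46 in H24 and 1.54 in S24. Kcne2 there was at 20.3 CPM in H24 and 2.10 CPM in S24 on average (3.30 ± 1.15, adjusted p = 0.666). It differed by 1.70 without the libraries that stood apart and by -0.09 with the oligodendrocyte and choroid plexus scores as covariates. Kcne2 itself followed the choroid plexus score in the 24 h BLA libraries (r = 0.996, n = 18), so that fit could leave little of its difference. The part of the score was not tested. In VTA, Kcnh4 differed by -1.79 ± 0.571 (adjusted p = 0.975), with S24 mouse 37 at 4.26 CPM and the next S24 mouse at 0.664 CPM, and by -0.77 without the libraries that stood apart.

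In PFC, 9 members were higher and 1 lower after a heroin challenge at an unadjusted p under 0.05 (8.94% of all genes), and 0 and 0 with the oligodendrocyte and choroid plexus scores as covariates. The share of all genes with these covariates is not given, so nothing about the members is read from the lower count. The oligodendrocyte score had medians of 5.48 in SH and 5.82 in HH against 6.20 in SS and 6.19 in HS. Kcna4 was at 43.3 CPM after heroin and 47.7 CPM after saline (-0.11 ± 0.0503, adjusted p = 0.530, 1 of 16 mice above the saline mean), and SH against SS gave -0.19 ± 0.0712 with 0 of 8 above (adjusted p = 0.663). Kcnf1 in PFC was higher by 0.20 ± 0.0619 in SH than in SS, with 8 of 8 mice above the SS mean (adjusted p = 0.492).

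The GIRK genes did not pass the threshold in any comparison. In VTA, Kcnj5 differed by -0.43 ± 0.225 in H24 from S24 (adjusted p = 0.975), Kcnj6 by -0.08 ± 0.159 and Kcnj3 by 0.10 ± 0.140. Without the libraries that stood apart the log2 difference of Kcnj6, H24 against S24, VTA, was -0.0235. In NAc, Kcnj9 differed by -0.22 ± 0.101 (adjusted p = 0.629), with 1 of 11 H24 mice above the S24 mean, and Kcnj6 by -0.17 ± 0.108. S24 mouse 37, whose NAc library stood apart, was at 66.7 CPM for Kcnj9 and the next S24 mouse at 42.8 CPM. Without the libraries that stood apart the log2 difference of Kcnj9, H24 against S24, NAc, was -0.0904 and the log2 difference of Kcnj6, H24 against S24, NAc, was -0.0684. In NAc SH against SS, Kcnj6 differed by 0.41 ± 0.215 and Kcnj9 by 0.21 ± 0.103. The excitatory neuron score was 3 or more in 3 of 8 SH and 1 of 8 SS libraries of NAc. Without such libraries the log2 difference of Kcnj6, SH against SS, NAc, was 0.0823 and the log2 difference of Kcnj9, SH against SS, NAc, was 0.0893. Of the partner genes, 16 of 18 on the list of binding partners and 21 or 22 of 22 on the list of receptors and subunits that gate GIRK channels were tested, and none was called in any comparison, with a smallest adjusted p of 0.395. At an unadjusted p under 0.05 the second list had 1 test higher and 11 lower for H24 against S24 (9.52% of its tests, against 4.94% of all genes), 5 and 6 for SH against SS (8.66%, against 4.16%), 6 and 0 for the challenge (4.72%, against 4.99%), 3 and 2 for the history (3.94%, against 4.82%) and 3 and 3 for the interaction (4.72%, against 3.25%). It had 1 and 2 for HS against SS (2.36%, against 3.25%), 1 and 0 for HH against SS (0.787%, against 4.36%) and 2 and 5 for HH against SH (5.51%, against 4.62%). On the list of binding partners the share was lowest for the interaction (1.04% of its tests, against 3.25% of all genes). It was highest, at 6.25%, for H24 against S24 (against 4.94%) and for the history (against 4.82%).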

How the data were processed

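Bulk RNA-seq of 6 brain regions was analysed. Per the labels, RNA was isolated with Qiagen RNEasy Micro kits, libraries were strand-specific and depleted of ribosomal RNA (TruSeq Gold), and reads were 2 × 150 bases. The deposited values are whole-number read counts per gene in 1 table of the whole series; the submitters' processing notes name FastQC, HISAT2, SAMtools, HTSeq and mm10. Tool versions, the annotation release and the strand setting of the counting are not given in the sources used here. Without that setting a gene and its antisense partner cannot be told apart: 22 members share exon bases with a gene on the opposite strand, more than 20% of their exons in Kcna6, Kcnj3 and Kcnmb4. A further 7 deposited files were not used.

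From the counts, CPM (scaled by the library's sum of gene counts) and log2(CPM + 0.5) were computed. Symbols came from GENCODE M21 by Ensembl identifier. Treatment comparisons were fitted per region, 24 h and 30 d mice apart, with edgeR 4.0.16 in R 4.3.3 (quasi-likelihood test, TMM factors, filterByExpr with a minimum count of 10, Benjamini-Hochberg adjustment over all genes tested); a standard error is the log2 difference over the square root of F. Regions were fitted over 304 libraries with the mouse as a block, since regions with the same mouse number come from 1 animal; the dispersion trend was estimated from every 10th gene by abundance and interpolated. Treatment groups share no mice. Correlations with marker scores used 100000 permutations, so 1e-05 is the smallest p they can give, and were adjusted over 36 relations, except that those taken within ranges of the choroid plexus score were adjusted among themselves (Pearson and Spearman together). A library stood apart when its median rank correlation with its region lay more than 4 median absolute deviations below the others. Exact replicate copies were looked for by chi-square over genes: the lowest value per degree of freedom over 1156 pairs of the same group and region was 6.65.

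Alternatives were DESeq2 1.42.0, other size factors, no low-count filter, no mouse block, saline mice only, leaving out libraries that stood apart, the number that opens a mouse's BLA library code as a covariate (30 d mice) and marker scores as covariates. The scripts were tested on simulated data. The members, marker lists and partner lists were chosen with earlier results of these data known. Named by rule were the 3 members highest and 2 lowest by log2 difference in each region, and 2 each way per region pair. So were the GIRK genes, up to 3 members per role by CPM per kilobase, and members tied to a cell type score. For H24 against S24, SH against SS and the challenge, the rule picked the member with the smallest p each way per region. Only some of these treatment values are given in the text. Other members named beside these were chosen after their values were seen. Counts include 3 members whose single values are not reported here.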

Additional observations from a re-analysis of the deposited data

Results flagged for a closer look

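In groups of 4 to 10 mice, the highest or lowest library of a named gene was compared with the nearest of the others, relative to the group's range (Dixon's test at 95%). Of 192 groups tested, 24 had such a library, where chance gives 9.6 at 1 in 20. Values are in CPM.

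Among the GIRK genes outside VTA, Kcnj3 was at 61.5 in NAc of S24 mouse 37 (nearest other mouse 25.7), at 64.2 in NAc of SS mouse 22 (30.3) and at 167 in PFC of SH mouse 29 (128.9). Kcnj5 was at 2.34 in PFC of HS mouse 14 (0.664) and at 0.732 in vHPC of SH mouse 27 (0.334). Kcnj6 was at 12.5 in NAc of SS mouse 22 (7.69) and at 11.9 in dStri of HS mouse 11 (7.66). Kcnj9 was at 66.7 in NAc of S24 mouse 37 (42.8), at 176 in PFC of SS mouse 22 (159), at 44.5 in dStri of HS mouse 11 (35.3) and at 128.1 in vHPC of HH mouse 25 (77.9). The excitatory neuron score was 4.79 in the NAc library of S24 mouse 37, 4.37 in that of SS mouse 22 and 3.84 in the dStri library of HS mouse 11, where the medians were 2.21 in NAc and 2.26 in dStri; the part of this score was not tested. The striatal score of the vHPC library of SH mouse 27 was 5.78, the highest of vHPC.

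In VTA, HH mouse 25 had the highest Kcnj3 of its group, 73.4 (nearest 48.9), and the lowest Kcnj6, 13.2 (29.1). Kcnj9 was at 65.04 in S24 mouse 37 (46.4), at 50.5 in SH mouse 27 (41.4) and at 51.1 in HS mouse 2 (37.8). Kcnh4 was at 4.26 in S24 mouse 37 (0.664) and Kcnk6 at 6.80 in SS mouse 28 (4.85). The VTA library of S24 mouse 37 had an excitatory neuron score of 4.61, the highest of VTA, and that of SH mouse 27 a striatal score of 4.36, also the highest; their part was not tested.

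Kcne2 was at 11.3 in BLA of S24 mouse 46 (1.47), at 53.4 in vHPC of SS mouse 28 (8.55) and at 11.5 in vHPC of SH mouse 29 (1.28), and all 3 libraries had choroid plexus scores of 4 or more. Kcne4 was at 4.51 in vHPC of HH mouse 18 (1.99), a library with a choroid plexus score of 7.91. In PFC, Kcna4 was at 34.9 in HH mouse 21, the lowest of its group (nearest 42.3) and Kcnq5 at 141.5 in S24 mouse 37 (129.9).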

How the results depend on the processing

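Of the calls of the 76 genes over the 6 regions and 4 pairs of regions, 24 were lost, 16 gained and 0 turned, summed over 5 alternatives. The losses were of Kcnj5, Kcnj9, Kcnh6, Kcnh7, Kcnip3, Kcnip4, Kcnk3, Kcnb2, Kcng2, Kcnc1, Kcnmb1 and Kcne2. Most lay near the limit of 1; in saline mice alone, Kcne2 in NAc went from -1.92 to -0.77 and Kcnmb1 in PFC from -1.10 to -0.58. The regional counts of members called stayed within 1.5 times of those reported. No treatment difference was called in the reported fit or in any alternative. Without the mouse block, which pairs regions of the same animal, the members called higher and lower were 18 and 7 in PFC, 11 and 18 in NAc, 13 and 22 in dStri, 9 and 1 in BLA, 13 and 9 in vHPC and 16 and 22 in VTA, and 9 and 7 for PFC against vHPC. Treatment differences of the GIRK genes and other named members, none past the threshold, were set beside each alternative fitted for their region. Over these pairs of a difference and an alternative, 659 kept the sign of the reported fit and 40 did not. The cause was not tested. The treatment values of single genes listed below are those 40. The number of member tests at an unadjusted p under 0.05 moved by over 1.5 times in 5 settings: 14 for H24 against S24 (26 in the reported fit) without libraries that stood apart, 15 for HH against SS (24) and 18 for the history (31) with the code set as covariate, and 34 for SH against SS (20) and 26 for the interaction (16) with marker scores as covariates. With the oligodendrocyte and choroid plexus scores as covariates, Kcne2 was at -0.0889 (H24, BLA) and 0.149 (SH against SS, vHPC), Kcnj3 at 0.0969 (H24, BLA), Kcnj5 at 0.590 (SH, PFC), 0.0407 (SH, NAc) and 0.0322 (challenge, NAc), Kcnj6 at 0.0493 (H24, dStri) and 0.087 (H24, BLA), and Kcnj9 at 0.082 (H24) and 0.0163 (challenge) in vHPC. Without libraries that stood apart, the log2 difference of Kcnj3, SH against SS, NAc, was -0.0424 and the log2 difference of Kcnj6, SH against SS, BLA, was -0.0161; Kcnj3 was at 0.0747 (H24, NAc), 0.0232 (H24, BLA) and 0.0035 (challenge, vHPC), Kcnj5 at 0.0155 (SH, PFC) and 0.0198 (SH, NAc), Kcnj6 at -0.025 (challenge, BLA), and Kcnj9 at 0.0265 (H24, vHPC) and 0.0688 (H24, VTA). With the code set (the number that opens the BLA library code) as covariate, Kcnj3 was at 0.0035 (SH, BLA). Without striatal libraries with excitatory scores of 3 or more, chosen after seeing the data, the log2 difference of Kcnj3, challenge, NAc, was -0.1185 and the log2 difference of Kcnj5, challenge, dStri, was -0.0458; Kcnj3 was at 0.0896 (H24) and -0.181 (SH) in NAc and at 0.1328 (H24) and -0.0248 (SH) in dStri, Kcnj5 at 0.2372 (SH) and 0.0218 (challenge) in NAc and -0.2429 (SH) in dStri, Kcnj6 at 0.0413 (H24), -0.42 (SH) and -0.1956 (challenge) in dStri, and Kcnj9 at -0.0326 (challenge, dStri). Without libraries with choroid plexus scores of 4 or more, also chosen after seeing the data, Kcne4 was at -0.0041 (challenge, vHPC), Kcnj3 at 0.0488 and Kcnj6 at 0.1094 (H24, BLA), Kcnj6 at -0.0171 (SH) and -0.0276 (challenge) in BLA and Kcnj9 at 0.0265 (H24, vHPC). Taken as deviations from group means, r was -0.0959 for Kcnj8 with the mural score in NAc and 0.207 for Kcnk13 with the microglia score in BLA. Libraries of 19.3 M counts hold few reads of a gene under 1 CPM, such as Kcnj5 in vHPC.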
